A study of Ixodes ricinus with 9 samples.

Results

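A Notch receptor match and a HES-1 match of the tick Ixodes ricinus were followed across 9 midgut RNA-seq libraries. They are gene HPB47_025776, whose best Swiss-Prot match is a neurogenic locus Notch protein, and gene HPB47_006896, matched to transcription factor HES-1, and they make up 2 of the 28510 genes in the count table. Both were chosen from earlier results of these libraries, in which the Notch match stood lower and the HES-1 match higher after antigen p23 silencing. Their differences between the antigen p23 libraries and the others are therefore given as a description with no test. A test of their relation within groups, after group means are removed, does include those libraries. The question put to them is whether a receptor and a repressor of the kind that receptor controls move together.

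Unfed adult females were injected with double-stranded RNA before artificial feeding on bovine blood, and midguts were taken on feeding day 7. The antigen p23 group received RNA against antigen p23, the metalloprotease group RNA against a metalloprotease, and the GFP control group RNA against green fluorescent protein, which has no counterpart in a tick. Each group had 3 libraries, and each library was a pool of 3 midguts, so 9 ticks stood behind a group. The reads were aligned to the genome of a related tick, I. persulcatus, and the sources used here pair neither silenced target with a gene of the table, so the knockdown was not checked in these counts. By RT-qPCR the study reported antigen p23 knockdown in the midgut, but only partial knockdown of the metalloprotease there. Silencing below names the RNA that was injected. Legumain (HPB47_025223), a protease of the digestive cells of the tick midgut, led the digestive genes, of which 11 of 22 were detected. Of the haemocyte and basement membrane genes 6 of 11 were detected. Genes listed as fat body and ovary markers, led by a vitellogenin match, summed to more than the digestive markers in every library. Which cells those reads came from was not tested.

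Notch is a receptor in the cell membrane that is activated by Delta or Serrate/Jagged ligands on a neighbouring cell. An ADAM protease and then gamma-secretase release its intracellular domain, which enters the nucleus, binds Suppressor of Hairless and recruits Mastermind to switch on target genes. Genes of the HES family, basic helix-loop-helix repressors that hold back differentiation genes, are the best known of these targets, although other signals also act on them. In the Drosophila midgut, Notch signalling between intestinal stem cells and their daughters directs which cell type a daughter becomes.

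The Notch match lies on scaffold JABSTQ010009654.1 of assembly BIME_Iper_1.3, from 589015 to 624649 on the minus strand, and has a coding length of 7113 bases. Its annotated domains include EGF repeats, which bind ligand in Notch receptors, LNR repeats, which keep the receptor from being cut without ligand, NOTCH domains and ankyrin repeats. It was the only gene model that met the annotation rule for a Notch receptor. The HES-1 match lies on scaffold JABSTQ010011008.1, from 126764 to 147307 on the plus strand, with a coding length of 792 bases, and carries a helix-loop-helix domain and the Hairy Orange domain of HES proteins. Neither gene overlaps its neighbours. The nearest models beside the Notch match start or end 6392 and 4834 bases away, and those beside the HES-1 match 35305 and 97504 bases away. Those neighbours hold few reads: HPB47_025775, matched to a queuine tRNA-ribosyltransferase, had 1 to 24 counts per library, HPB47_006895 had 1 count in total, and HPB47_025777 and HPB47_006897 had 0 in all 9 libraries.

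Libraries held 3303358 to 9430607 counts, with the metalloprotease library 3 the deepest and the other 8 at or below 4681133. Antigen p23 libraries 1 and 2 stood apart, with 7291 and 6294 genes detected against 9136 to 10988 in the other 7 libraries. Metalloprotease library 1 also stood apart, with a summed muscle marker level of 853.8 CPM (counts per 1e6 counts) against 1434 to 3142 in the others. Intervals in CPM and detection limits below cover counting error only. With pools as replicates, the tests and the intervals of log2 differences measure the spread between pools.

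The Notch match was lower in every antigen p23 library than in any other library. Its level in CPM, scaled between libraries by the trimmed mean of M-values (TMM), was 47.4, 45.6 and 32.3 in GFP control libraries 1 to 3. It was 2.77, 10.4 and 20.2 in the antigen p23 libraries and 47.9, 27.3 and 44.2 in the metalloprotease libraries. The antigen p23 libraries overlapped neither other group, while the metalloprotease and GFP control libraries overlapped. The share of all genes whose libraries separate in this way was not counted, here or for the genes below. Antigen p23 library 1 was the lowest of all, with only 8 counts, for which the 95% Poisson interval runs from 1.20 to 5.46 CPM. Even antigen p23 library 3, the highest of its group with 64 counts, stood below metalloprotease library 2, the lowest of the others with 93 counts, although their counting intervals overlapped, at 15.6 to 25.8 and 22.0 to 33.4 CPM.

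The HES-1 match stood the other way around. Its level was 65.5, 75.4 and 69.99 CPM in the GFP control libraries, 265.0, 190.9 and 180.9 CPM in the antigen p23 libraries and 46.6, 176.0 and 150.4 CPM in the metalloprotease libraries. The 3 GFP control libraries lay close together and the antigen p23 libraries lay above all the others. The metalloprotease libraries were split, with library 1 the lowest of all 9 and libraries 2 and 3 near the antigen p23 range. The gap between antigen p23 library 3 at 180.9 CPM and metalloprotease library 2 at 176.0 CPM was smaller than the counting interval of either, which ran from 166.3 to 196.3 and from 162.2 to 190.7 CPM.

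**Figure D1:**
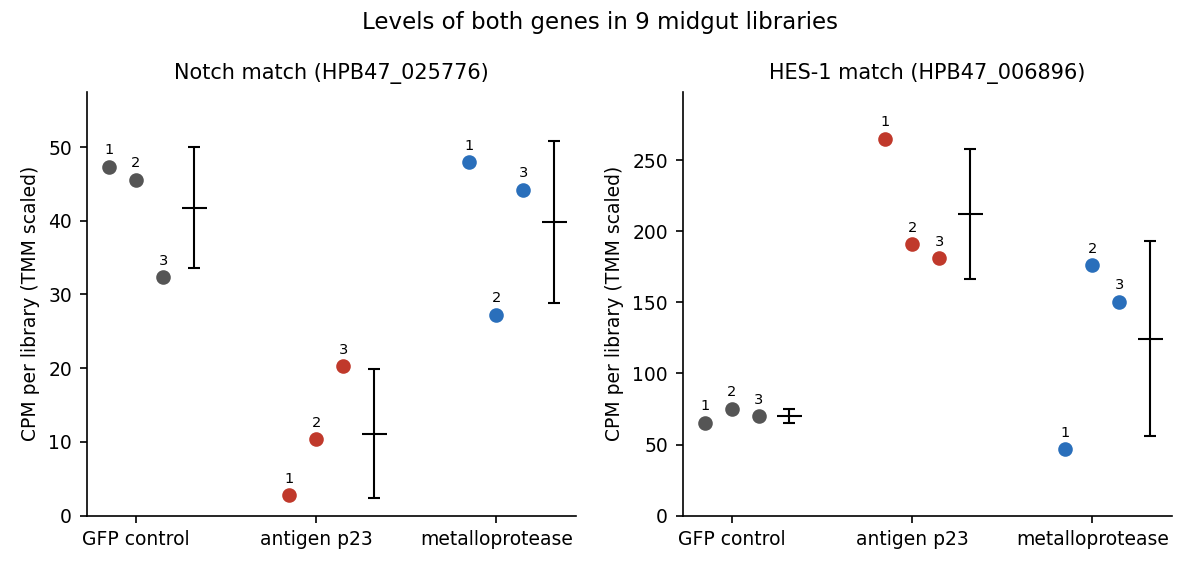
Each point is the TMM-scaled CPM of a library, numbered within its group, for the Notch match on the left and the HES-1 match on the right, and bars are the group mean ± SD (n = 3 libraries). The Notch match runs from 2.77 to 20.2 CPM in the antigen p23 libraries and from 27.3 to 47.9 CPM elsewhere, whereas the HES-1 match is highest in the antigen p23 libraries and split in the metalloprotease group.

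By group mean, the Notch match ran from GFP control at 41.8 ± 8.21 CPM (SD, n = 3) through metalloprotease at 39.8 ± 10.99 to antigen p23 at 11.1 ± 8.76. The first pair in this order did not differ beyond the spread. The HES-1 match ran in the opposite order, from antigen p23 at 212.3 ± 46.0 CPM through metalloprotease at 124.3 ± 68.5 to GFP control at 70.3 ± 4.94, and the metalloprotease group overlapped the GFP control. Per kilobase of coding length, the receptor match was the less abundant transcript in every group. In the GFP control it stood at 5.87 ± 1.16 CPM per kilobase (SD, n = 3), rank 5321 of 28510 genes, and the HES-1 match at 88.7 ± 6.24, rank 1283. Only 11840 of these genes had a GFP control mean above 0. In these bulk midguts, fewer cells of a type and less RNA per cell cannot be told apart.

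After antigen p23 silencing, the fitted log2 difference from the GFP control was -1.92 (SE 0.66) for the Notch match, which is 3.78-fold lower, and 1.58 (SE 0.30) for the HES-1 match, which is 2.995-fold higher. Since this contrast chose both genes, nothing is read from their place in it. Over all 6381 genes tested with edgeR's quasi-likelihood test, 0.00% passed an adjusted p of 0.05 and 3.26% (208 genes) an unadjusted p of 0.05, and with DESeq2 0.0786% (6 of 7632) passed the adjusted threshold. The size of the Notch difference depended on the antigen p23 libraries used. It was -1.46 without antigen p23 library 1, -2.67 without library 3 and -1.04 (SE 0.49) with library 3 as the sole antigen p23 library, whereas the HES-1 difference with library 3 alone was 1.37. In the last of these fits the lone library was assumed to vary like the GFP control.

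In the metalloprotease group, where the study reported only partial knockdown in the midgut, the Notch match lay within the spread of the GFP control. The log2 difference was -0.07 (SE 0.33, 95% interval -0.84 to 0.70) with an adjusted p of 1.00 by edgeR's quasi-likelihood test. The HES-1 match was 0.82 higher on the log2 scale (SE 0.47, 95% interval -0.27 to 1.90), with an adjusted p of 1.00 in the same test, and it was higher in 2 of 3 metalloprotease libraries. Neither gene passed, in a comparison where 0.00% of 6786 genes passed the adjusted threshold, 1.43% (97 genes) an unadjusted p of 0.05 and 0.00% of 12652 genes the adjusted threshold of DESeq2. The size of the HES-1 value depended on the metalloprotease libraries used. The log2 difference was 1.21 (SE 0.29, adjusted p of 0.9996 by edgeR) without metalloprotease library 1, 0.50 without library 2 and 0.66 without library 3. Metalloprotease library 1 was also the library with the low muscle marker level, and the part of that in its HES-1 level was not tested.

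Set against each other, the knockdown groups differed by -1.85 (SE 0.68) on the log2 scale for the Notch match and by 0.78 (SE 0.47) for the HES-1 match, antigen p23 minus metalloprotease. The Notch difference was close to that from the GFP control, and the HES-1 difference was smaller. The HES-1 difference was 0.37, 1.10 and 0.91 without metalloprotease libraries 1, 2 and 3 in turn, and 0.53 with antigen p23 library 3 alone. The Notch difference with antigen p23 library 3 alone was -0.98. In this comparison, which shares its antigen p23 libraries with the choice of genes, 0.00% of 6383 genes passed the adjusted threshold by edgeR, 2.57% (164 genes) an unadjusted p of 0.05, and 0.275% (21 of 7630) the adjusted threshold of DESeq2.

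The ratio of the pair within a library does not depend on depth or scaling. There were 1.38, 1.65 and 2.17 HES-1 counts per Notch count in the GFP control libraries, 95.6, 18.4 and 8.94 in the antigen p23 libraries, and 0.973, 6.45 and 3.41 in the metalloprotease libraries. Every antigen p23 library thus lay above every other library. This follows from the choice of genes, since the HES-1 match was higher and the Notch match lower in each of them. The ratio is therefore no further support beside the 2 levels. On the log2 scale, with 0.5 added to each count, the group means were 0.77 ± 0.32 (SD, n = 3) for the GFP control, 1.47 ± 1.39 for metalloprotease and 4.61 ± 1.71 for antigen p23. The antigen p23 mean was 3.84 above the GFP control, or 2.38 with antigen p23 library 3 alone. The metalloprotease mean was 0.70 above it, a difference smaller than the SD of its own 3 libraries that ranged from 0.10 to 1.46 as each library was left out.

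The 9 libraries ranked almost in reverse order by the 2 genes, with a Spearman correlation of -0.95 and a Pearson r of -0.76 between their log2 CPM levels (prior count 2). These 2 values describe the groups from which the genes were chosen and carry no test. After subtraction of each group's mean, which removes the group differences, Spearman's correlation was -0.83 (exact permutation p = 0.00926, two-sided, 0.0185 after Benjamini-Hochberg adjustment over 2 measures) and Pearson's r was -0.45 (exact permutation p = 0.107, adjusted 0.107, n = 9). The smallest p that rearranging libraries within groups can give was 0.00463. The rank measure therefore passed the threshold and the linear measure did not. The exact permutation p of Pearson's r ran from 0.0417 to 0.375 as each library was left out. The 9 libraries include the antigen p23 libraries from which the genes were chosen. Whether the genes move together within groups is therefore not settled by these 2 measures. Pearson's r was -0.57 without antigen p23 libraries 1 and 3, the 2 libraries farthest from the median of the Notch deviation. The group means subtracted for that value were still those of all 9 libraries.

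On the log2 scale, antigen p23 library 1 deviated from its group mean by -1.48 for the Notch match and by 0.34 for the HES-1 match, library 2 by 0.27 and -0.13, and library 3 by 1.21 and -0.21. In the metalloprotease group, library 1 deviated by 0.31 for the Notch match and by -1.20 for the HES-1 match, library 2 by -0.50 and 0.71, and library 3 by 0.19 and 0.49. In the GFP control group, library 1 deviated by 0.20 and -0.10, library 2 by 0.15 and 0.10, and library 3 by -0.34 and -0.00. The 2 genes thus deviated in opposite directions in 6 of 9 libraries and in the same direction in GFP control libraries 2 and 3 and metalloprotease library 3. Leaving out metalloprotease library 1 gave a Pearson r of -0.91 and leaving out library 2 gave -0.36. The number of genes detected in a library moved with both, with an r of 0.83 for the Notch match and -0.63 for the HES-1 match over the 9 libraries, and its part in the pattern was not tested.

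**Figure D2:**
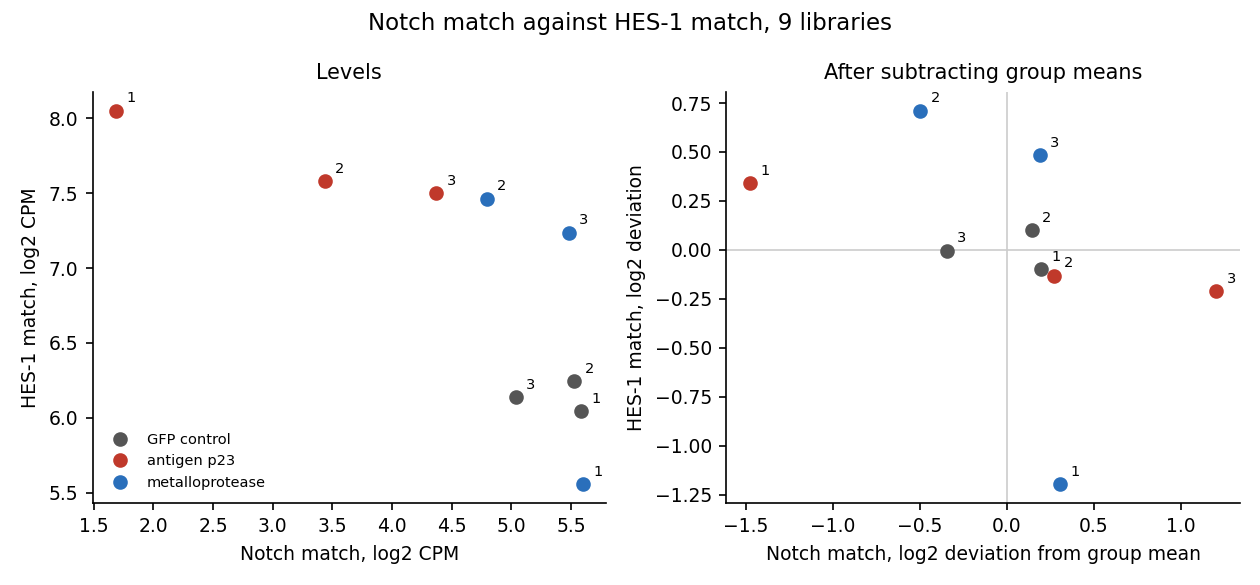
The left panel plots log2 CPM (prior count 2) of the HES-1 match against the Notch match for the 9 numbered libraries, and the right panel plots the same values after subtraction of each group's mean. The antigen p23 libraries take the upper left of the levels, and metalloprotease library 1, the lowest for the HES-1 match, lies at the lower right.

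The Notch match has one of the longer coding sequences in the table, and length moved with the antigen p23 comparison. The median log2 difference from the GFP control was 0.00 over 2382 tested genes with a coding length under 1000 bases, -0.10 over 2453 genes from 1000 to under 2000 bases, -0.19 over 1256 genes from 2000 to under 4000 bases and -0.39 over 290 genes of 4000 bases or more. Of the longest class, 74.5% were lower. The Notch match, chosen for its low value in this comparison, stood at -1.53 relative to the median of its class, with 9 of the 290 genes at or below its value, which is given as a description. With antigen p23 library 3 alone the class medians were -0.12, -0.13, -0.08 and -0.09, the Notch match was at -1.04, and 36 of 326 genes of its class were at or below its value. In the metalloprotease comparison the longest class had a median of -0.16, with 69.0% of its 306 genes lower. The part of length in the Notch difference beyond these values was not tested. The HES-1 match belongs to the shortest class.

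**Figure D3:**
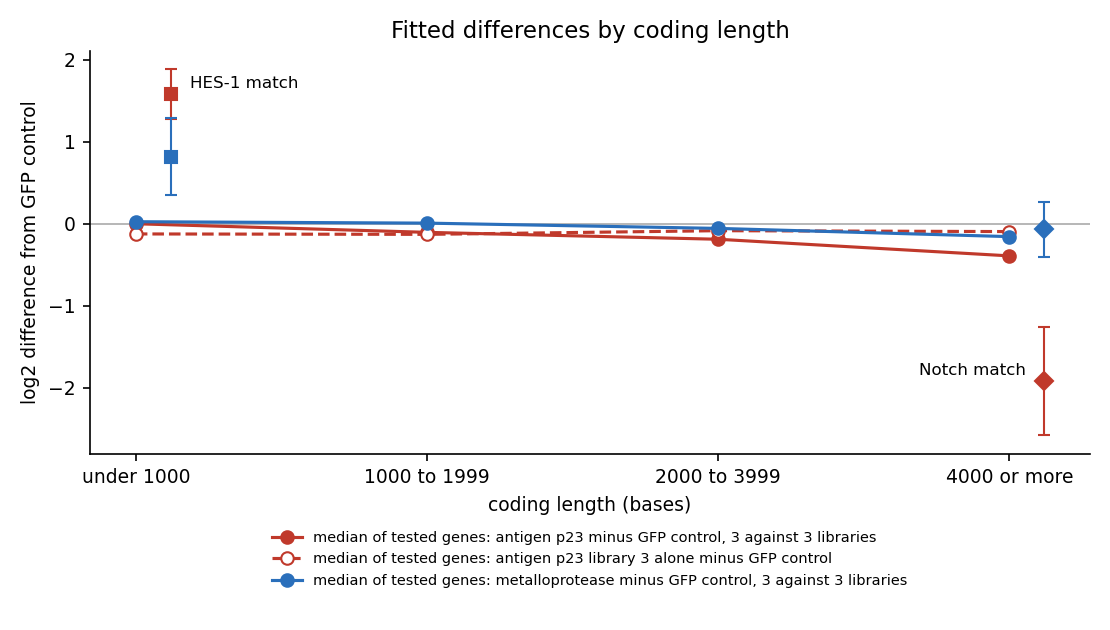
Circles are the median log2 differences from the GFP control of tested genes in 4 classes of coding length in bases, and the diamonds and squares are the Notch and HES-1 matches with their standard errors. The antigen p23 medians run from 0.00 to -0.39 with length and lie between -0.13 and -0.08 with library 3 alone, and the Notch match at -1.92 lies below its class.

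Beside both matches, 62 other genes were listed for the Notch pathway by their annotation, of which 11 had 0 counts in all 9 libraries. None of them passed an adjusted p of 0.05 in any comparison, by edgeR or by DESeq2. After antigen p23 silencing 9 of 33 tested genes were higher and 24 lower (72.7% lower, against 56.0% of all genes tested), with a median log2 difference of -0.27 against -0.10 over all genes. At an unadjusted p of 0.05, 1 was higher and 1 lower (6.06%, against 3.26% of all genes). After metalloprotease silencing 12 of 35 tested genes were higher and 23 lower (65.7% against 50.6%), with a median of -0.13 against -0.00 over all genes, and 1 gene passed the unadjusted threshold (2.86% against 1.43%). Antigen p23 minus metalloprotease gave 14 higher and 18 lower of 32, with a median of -0.07, as over all genes, and 1 gene past the unadjusted threshold (3.13% against 2.57%). The first 2 comparisons share the GFP control libraries. The list holds false matches by annotation: 8 genes matched a nicotine oxidoreductase through an entry code shared with nicastrin, and 2 alpha-amylase matches carry a Hairy Orange domain.

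Ligands had few counts and varied widely within groups. The serrate match (HPB47_012547), a ligand of Notch, had 9, 66 and 46 counts in the GFP control libraries, 93, 2 and 3 in the antigen p23 libraries and 120, 10 and 167 in the metalloprotease libraries. Its groups overlapped in all comparisons, and its log2 difference from the GFP control was 0.27 (SE 1.34) in the antigen p23 group and 0.78 (SE 0.86) in the metalloprotease group. The Delta-like 1 match (HPB47_027314), with at most 21 counts in a library and 0 in antigen p23 library 1, was too low for the filter of the edgeR test, and its DESeq2 adjusted p was 0.976 or more in the 3 comparisons. A count of 0 in that library allows up to 3 counts, or 1.04 CPM.

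Among the enzymes that add sugars to the EGF repeats of Notch, 3 of 6 genes were tested by edgeR. The rumi match (HPB47_007409), an O-glucosyltransferase, had the highest mean CPM of the role, 177.6 over the 9 libraries and not divided by length, and a log2 difference of -0.12 (SE 0.30) after antigen p23 silencing. The xyloside xylosyltransferase 1 match that was tested (HPB47_006489), an enzyme that lengthens the O-glucose glycan, had a log2 difference of 0.89 (SE 0.53) after metalloprotease silencing. Between the knockdowns, antigen p23 minus metalloprotease, its difference was -1.44 (SE 1.34). Neither passed, and the fringe match (HPB47_022173), which had at most 12 counts in a library, did not pass the filter of the edgeR test.

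In the role of Notch cleavage, 6 of 18 listed genes were tested, 3 higher and 3 lower after each silencing. The 18 include the 8 false matches to a nicotine oxidoreductase, none of which was tested by edgeR. Of several ADAM10 matches, only HPB47_022154 was tested by edgeR. ADAM10 is the protease that makes the ligand-induced cut. The tested match stood at 22.9, 9.19 and 27.3 CPM in the GFP control libraries and 10.1, 4.45 and 12.02 CPM in the antigen p23 libraries. In the metalloprotease libraries it stood at 42.4, 8.80 and 32.6 CPM. Library 2 was the lowest of each group, and the antigen p23 range overlapped both others. The log2 difference was -1.16 (SE 0.64) for antigen p23 minus GFP control, 0.52 (SE 0.63) for metalloprotease minus GFP control and -1.67 (SE 0.70) for antigen p23 minus metalloprotease, the last with an unadjusted p of 0.0404 and an adjusted p of 0.998 by edgeR. The furin-like protease 2 match (HPB47_028375), of the furin family that processes Notch on its way to the membrane in mammals, had the highest mean CPM of the role, 169.0 over the 9 libraries.

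Genes of endocytosis and ubiquitin ligation, which control how much receptor and ligand stay at the membrane, had 11 of 17 listed genes tested against the GFP control. After antigen p23 silencing 10 of the 11 were lower, with a median log2 difference of -0.47, against 56.0% lower and a median of -0.10 over all genes. The 11 include neighbouring gene models with the same match, for Nedd-4 and for the ubiquitin ligase DTX2. Whether such neighbours are separate genes was not tested. After metalloprotease silencing 10 of 11 were also lower, with a median of -0.18, against 50.6% and -0.00, and since both comparisons use the same control libraries these counts are not independent. None of these genes passed. The epsin-2 match (HPB47_002129), whose Drosophila counterpart acts in ligand endocytosis, had a mean of 182.9 CPM over the 9 libraries and differed by -0.49 (SE 0.31) after antigen p23 silencing. A match to the ubiquitin ligase Nedd-4 (HPB47_000691) differed by -0.49 (SE 0.39) after metalloprotease silencing. Its neighbouring and more abundant Nedd-4 match differed by -0.31 (SE 0.30). The neuralized match HPB47_023300, named for the ubiquitin ligase of Notch ligands, was at 0 counts in antigen p23 library 2, which allows up to 0.889 CPM, and at 1.04 and 16.4 CPM in libraries 1 and 3. Its GFP control levels of 11.6 to 19.8 CPM overlapped that range, and the log2 difference between the knockdowns was -1.33 (SE 1.32). A second neuralized match on the same scaffold, HPB47_023304, also named for its role, was not lower after antigen p23 silencing. Its mean was 32.1 CPM in the GFP control and 35.7 CPM in the antigen p23 libraries, a log2 difference of 0.15 (SE 0.42).

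In the nuclear complex 10 of 13 listed genes were tested. Suppressor of Hairless (HPB47_005748), the DNA-binding partner of the Notch intracellular domain, is named here for that role and stood at 55.8, 64.3 and 59.6 CPM in the GFP control libraries, 52.7, 62.8 and 40.5 CPM in the antigen p23 libraries and 38.7, 55.7 and 47.7 CPM in the metalloprotease libraries. It differed from the GFP control by -0.22 on the log2 scale after antigen p23 silencing and by -0.34 after metalloprotease silencing, without passing. The antigen p23 libraries overlapped the control, and the 3 metalloprotease libraries lay below it, the highest of them only just. The mastermind match (HPB47_019928), the co-activator of that complex and also named for its role, differed by 0.20 and 0.01. Neither passed the unadjusted threshold in any comparison.

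The split ends match (HPB47_001036), a corepressor that acts with Suppressor of Hairless, was 1 of the 2 listed genes past the unadjusted threshold after antigen p23 silencing. It stood at 179.5, 142.9 and 155.1 CPM in the GFP control libraries, 43.7, 74.4 and 129.0 CPM in the antigen p23 libraries and 117.8, 259.6 and 118.5 CPM in the metalloprotease libraries. The log2 difference was -0.96 (SE 0.41), with an unadjusted p of 0.0422 and an adjusted p of 0.964 by edgeR, and it was lower in 3 of 3 antigen p23 libraries than in any GFP control library. With a coding length of 12885 bases it belongs, like the Notch match, to the longest class. The CREB-binding protein match (HPB47_024438), a histone acetyltransferase, differed by -0.68 after antigen p23 silencing and by -0.58 (SE 0.30) after metalloprotease silencing. The C-terminal-binding protein match (HPB47_024562), a corepressor, had the highest mean CPM of the role, 276.9 over the 9 libraries.

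The HES and HEY family holds 6 listed genes beside the HES-1 match, and they lay on both sides of the control. The cwo match (HPB47_027004), named for clockwork orange, a repressor of the Drosophila circadian clock that shares the helix-loop-helix and Orange domains, was the other gene past the unadjusted threshold after antigen p23 silencing. It stood at 556, 644 and 586 CPM in the GFP control libraries, 1113, 888 and 883 CPM in the antigen p23 libraries and 719, 698 and 618 CPM in the metalloprotease libraries. As for the HES-1 match, the antigen p23 libraries lay above all the others, and the share of all genes that do so was not counted. The log2 difference from the GFP control was 0.68 (SE 0.26), with an unadjusted p of 0.0266 and an adjusted p of 0.964 by edgeR, and 0.51 (SE 0.25) from the metalloprotease group.

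The deadpan match HPB47_011462, named for a repressor that keeps Drosophila neural stem cells undifferentiated, was the listed gene past the unadjusted threshold after metalloprotease silencing. It stood at 82.7, 131.5 and 153.5 CPM in the GFP control libraries, 144.1, 90.4 and 23.4 CPM in the antigen p23 libraries and 64.4, 51.0 and 66.0 CPM in the metalloprotease libraries. All 3 metalloprotease libraries lay below the control, with a log2 difference of -1.02 (SE 0.32, unadjusted p = 0.0142, adjusted p = 1.00 by edgeR), while the antigen p23 libraries overlapped it, at -0.52 (SE 0.58). The direction was opposite to that of the HES-1 match in both silenced groups. A second deadpan match on the same scaffold, HPB47_011459, had 3 to 23 counts in the GFP control libraries, 0 or 1 in the antigen p23 libraries and 4 to 22 in the metalloprotease libraries. The HES-4 match HPB47_011455, also on that scaffold, had 1 count in each metalloprotease library and 0 elsewhere. The alpha-amylase matches with an Orange domain had at most 34 counts in a library (HPB47_012128) and 0 in all 9 (HPB47_014517).

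**Figure D4:**
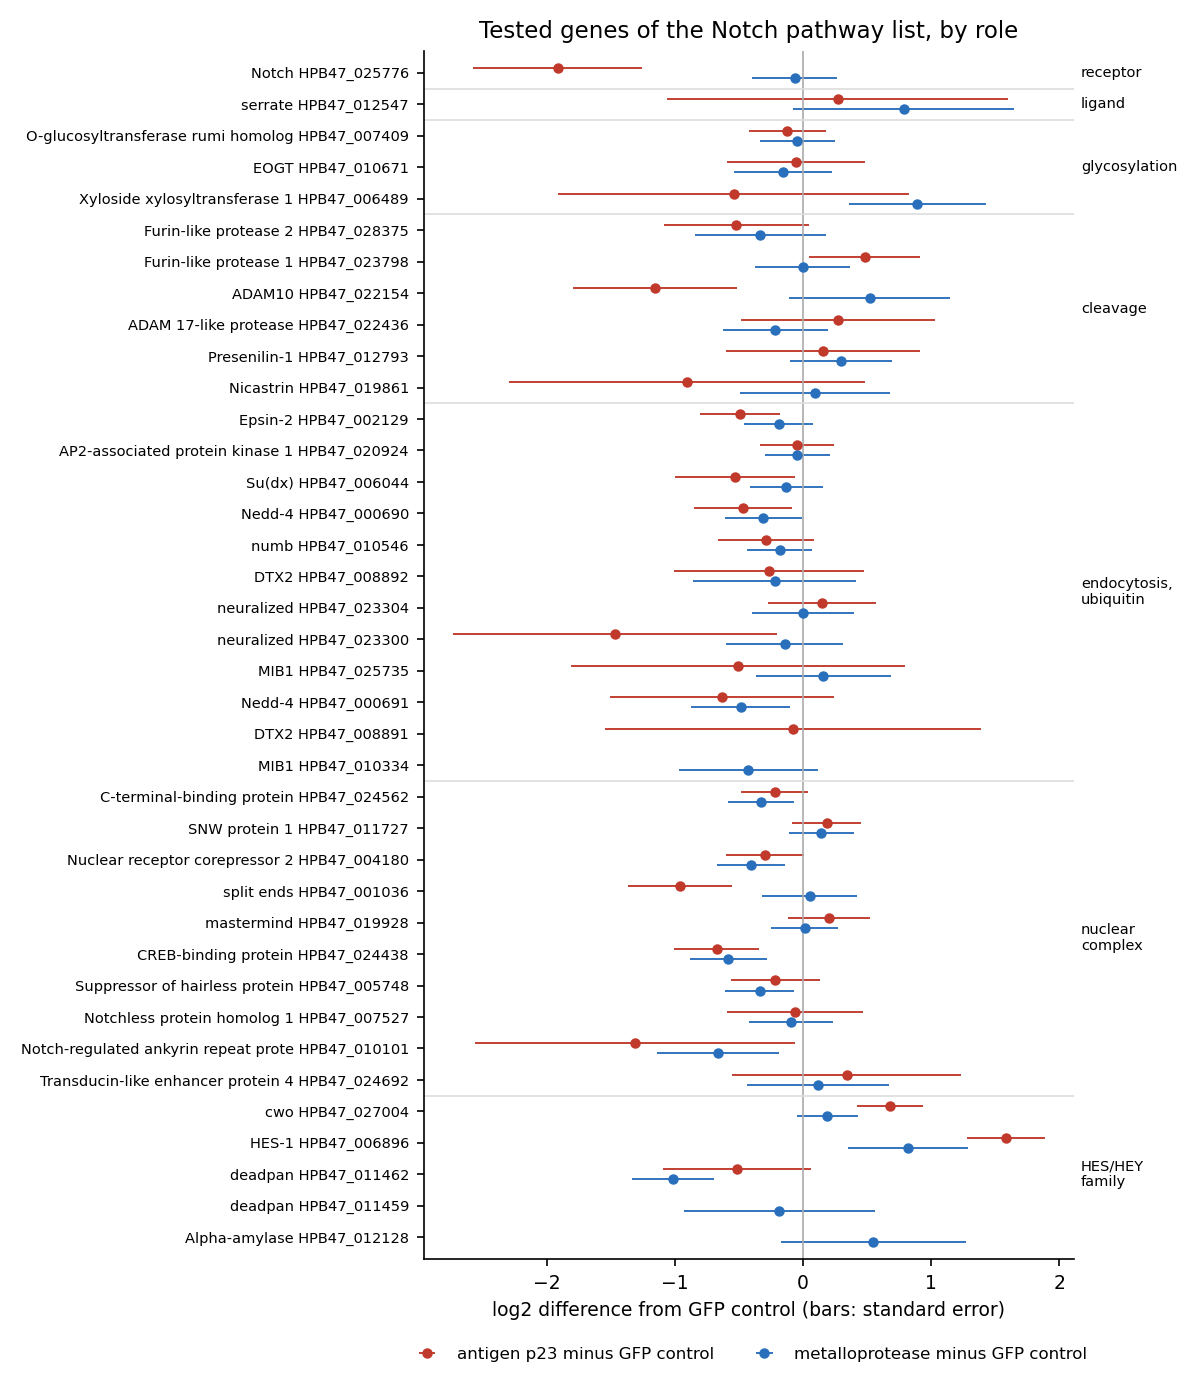
Points are log2 differences from the GFP control of the tested genes of the Notch pathway list and both matches, ordered by role, with standard errors as bars. The antigen p23 values of the Notch match (-1.92) and the HES-1 match (1.58) are those for which the genes were chosen, and by edgeR no gene of the table passed an adjusted p of 0.05 in either comparison.

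Among the genes most like the Notch match over the 9 libraries, by Pearson's r of log2 CPM among 6923 genes, were matches to glucoside xylosyltransferase 1 (HPB47_009117, r = 0.96), a tyrosine-protein phosphatase (HPB47_015486, r = 0.96), exosome component RRP43 (HPB47_025234, r = 0.96) and zinc finger MYM-type protein 4 (HPB47_007567, r = 0.95). Glucoside xylosyltransferase 1 adds xylose to the O-glucose of Notch EGF repeats in mammals. It had 48, 104 and 53 counts in the GFP control libraries, 3, 16 and 33 in the antigen p23 libraries and 78, 40 and 123 in the metalloprotease libraries. The most opposite were a match to a SWI/SNF chromatin subunit (HPB47_023376, r = -0.97) and 2 genes without a named match, HPB47_013683 and HPB47_002286, both at -0.97. The HES-1 match, at -0.76, ranked 6717 from the top.

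For the HES-1 match the most alike were matched to intersectin-1 (HPB47_026548, r = 0.93), polycomb protein BMI-1 (HPB47_011543, r = 0.92), glucose-6-phosphatase (HPB47_006720, r = 0.92), protein arginine methyltransferase 7 (HPB47_001226, r = 0.91) and a Ras association domain protein (HPB47_005597, r = 0.91). The most opposite were HPB47_012824, without a named match (r = -0.94), a match to vesicle-associated membrane protein 7 (HPB47_011227, r = -0.92) and a match to scabrous (HPB47_002307, r = -0.92), which in Drosophila is a secreted protein that acts on Notch signalling. The scabrous match had 39, 63 and 49 counts in the GFP control libraries, 0, 0 and 6 in the antigen p23 libraries and 56, 7 and 20 in the metalloprotease libraries. It was thus low where the HES-1 match was high, metalloprotease libraries 2 and 3 included. The Notch match ranked 6808 from the top for the HES-1 match. These correlations describe 9 libraries that share the group differences and the low gene numbers of antigen p23 libraries 1 and 2, and are given without a test.

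Genes listed as markers of digestive cells and of other tissues were compared beside these levels. Summed digestive markers (11 of 22 detected) ran from 1490 to 2612 CPM in the GFP control, 2304 to 4681 in the antigen p23 and 1305 to 2635 in the metalloprotease libraries. Muscle markers (17 of 18 detected) ran from 1434 to 2513, 2217 to 2621 and 853.8 to 3142 CPM in the same order, and neuron markers (5 of 5) from 531.8 to 715.0, 444.3 to 689.1 and 511.6 to 612.8 CPM. All these ranges overlapped between groups. Fat body and ovary markers (7 of 9), led by vitellogenin, ran from 23830 to 87850, 32590 to 60260 and 26560 to 93300 CPM, and haemocyte and basement membrane markers (6 of 11) from 117.6 to 184.5, 87.7 to 157.1 and 113.8 to 161.3 CPM. Their part in the levels of the Notch and HES-1 matches was not tested.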

How the data were processed

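Per the labels and the study's methods, the authors aligned paired reads with Bowtie2 2.5.3 to I. persulcatus assembly BIME_Iper_1.3 and used featureCounts for gene counts. The deposited table holds these counts unnormalized, for 28510 genes and 9 libraries. How strand and reads shared by similar genes were handled is not given in the sources used here. Names are best Swiss-Prot matches.

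Each comparison used its own 6 libraries (3 against 3). With edgeR 4.0.16 under R 4.3.3, genes were filtered by filterByExpr, were scaled by TMM, and were tested by the robust quasi-likelihood F test with Benjamini-Hochberg adjustment over all genes tested. DESeq2 1.42.0 was an alternative, with other filters and scalings, each library left out and a replicate block. The fits were tested on simulated data. Both genes passed the filter in all comparisons.

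The genes, the pathway and marker lists were chosen with earlier results of these data known. Named genes were both matches, their neighbours, the tested gene with the highest mean CPM and the gene with the smallest p of each pathway role, all HES family genes, and the 5 most and 3 least correlated genes, and others are said to be named for their role or were too low for the edgeR filter. A gene that this rule names is not reported here. Intervals in CPM are 95% exact Poisson intervals, and the limit of a count of 0 is 3 counts. The SE of an edgeR log2 difference was its absolute size divided by the square root of the F statistic. The 95% intervals of log2 differences were built from that SE with the t distribution.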

Additional observations from a re-analysis of the deposited data

How the results depend on the processing

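Of 251 recomputed values, 228 kept their direction and their side of the threshold or, for counts and values without a test, stayed within 1.5 times or within the spread between libraries. The near-zero metalloprotease minus GFP control difference of the Notch match changed sign, from -0.22 to 0.14 as each library was left out and to 0.089 relative to its coding length class, a setting chosen after seeing the data. The HES-1 match after antigen p23 silencing was 1.31 with library size alone as scaling, and the difference in log2 ratio of the pair was 2.38 with antigen p23 library 3 alone. The median of the pathway list after antigen p23 silencing was -0.51 with library size alone, -0.50 without a filter, -0.44 with a replicate block and -0.48 with DESeq2. Antigen p23 minus metalloprotease gave -0.29 with library size alone, and the metalloprotease median ran from -0.22 to -0.039 as each library was left out. Genes called after antigen p23 silencing were 5 without a filter and 6 with DESeq2, and for antigen p23 minus metalloprotease 16 without a filter, 1 with at least 10 counts in every library, 1 with the replicate block and 21 with DESeq2. The within-group Spearman correlation of the pair was -0.83, and Pearson's r ran from -0.91 to -0.36 as each library was left out. The cause of these shifts was not tested. Replicate numbers did not pair the libraries, with residual correlations of same-numbered libraries from -0.47 to 0.10, and 0, 0 and 2 of 6 libraries closest to their own number in the 3 comparisons. With 8 counts in antigen p23 library 1, the Notch match did not pass the filter of at least 10 counts in every library. That setting therefore gave it no value in the antigen p23 comparisons. Depth limits the lowest values most, above all the 8 Notch counts of antigen p23 library 1.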
